A study of Mus musculus with 3 samples.

Results

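The probes described here detect the mature arms of the microRNAs of the cluster that runs from miR-290 to miR-295 (miR-290, miR-291a, miR-291b, miR-292, miR-293, miR-294 and miR-295), called the miR-290 cluster below, and of the miR-302 cluster (miR-302a, miR-302b and miR-302d), which are 10 microRNAs in all. They were chosen by name, taking every mouse probe with one of these names and either arm, which gave 20 of the 1265 microRNA probes on each array, 14 for the miR-290 cluster and 6 for miR-302. MicroRNA levels were measured on 3 single-colour arrays of mouse intestinal organoids, small epithelial structures grown in a gel, with 1 array per group. The groups were untreated organoids of wild-type mice, grown from normal epithelium of the intestine; untreated organoids of ApcMin mice, which bear a truncating mutation in the Wnt pathway gene Apc, grown from tumours of the intestine; and such tumour organoids after 5-Aza-CdR at 1 uM, a cytidine analogue that traps DNA methyltransferases. All 3 cultures grew in Matrigel in a medium without serum that contained R-spondin 1, EGF and Noggin, so the wild-type organoids also received a Wnt pathway agonist. How many animals or organoid lines each culture came from, how long the treatment lasted and whether the untreated cultures received a vehicle is not given in the sources used here. Sets of 3 values are given in the order wild type, tumour and treated tumour. With 1 array per group there was no replicate check and no test, and a difference between groups cannot be told apart from a difference between single cultures, extractions or arrays.

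MicroRNAs of the miR-290 cluster are the most abundant microRNAs of mouse embryonic stem cells, and those of the miR-302 cluster are prominent in the epiblast and in primed pluripotent cells. Most of their 3p arms share the letters AAGUGC in the seed, the stretch near the 5′ end that pairs with target mRNAs, and in embryonic stem cells these arms repress inhibitors of the step from G1 to S phase. Both clusters are switched off in most differentiated tissues, where promoter methylation at the miR-290 locus has been described.

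In these organoids the signal lay almost entirely on the 5p side of the miR-290 cluster. Of its 7 probes for 5p arms, 6, 5 and 6 were above the brightest of the negative control spots, whereas none of its 7 probes for 3p arms with an unmarked spot and none of the 6 miR-302 probes passed that limit on any array. The sequences are shown first because the arm, and the runs of letters that members share, bear on what these probes can report. Of the 20 members, 18 matched a mature sequence in RefSeq (GRCm38.p6), printed 5′ to 3′ with the seed, bases 2 to 8, in capitals. The array names miR-290 and miR-292 were matched to the RefSeq forms miR-290a and miR-292a. The RefSeq sequence is that of the microRNA, and the capture probes on the array were not read.

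The 7 arms on the 5p side of the miR-290 cluster came first along each hairpin and none carried AAGUGC in its seed.
miR-290-5p: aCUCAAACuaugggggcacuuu
miR-292-5p: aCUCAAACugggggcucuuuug
miR-293-5p: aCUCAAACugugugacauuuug
miR-294-5p: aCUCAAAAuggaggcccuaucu
miR-295-5p: aCUCAAAUguggggcacacuuc
miR-291a-5p: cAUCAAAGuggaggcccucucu
miR-291b-5p: gAUCAAAGuggaggcccucucc

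Of these, miR-290-5p, miR-292-5p and miR-293-5p shared the seed CUCAAAC, and miR-291a-5p and miR-291b-5p shared AUCAAAG. The last pair also shared an unbroken run of 20 of their 22 bases, so their probes may read each other's target, and their values are uncertain for that reason.

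The 3p arms of the miR-290 cluster with a sequence carried AAGUGC in the seed, except miR-293-3p.
miR-291a-3p: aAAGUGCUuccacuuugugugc
miR-294-3p: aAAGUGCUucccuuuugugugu
miR-295-3p: aAAGUGCUacuacuuuugagucu
miR-290-3p: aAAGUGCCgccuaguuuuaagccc
miR-291b-3p: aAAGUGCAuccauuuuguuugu
miR-293-3p: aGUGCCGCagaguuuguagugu

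The miR-302 arms followed the same division, with AAGUGCU on the 3p side only.
miR-302b-3p: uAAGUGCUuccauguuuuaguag
miR-302d-3p: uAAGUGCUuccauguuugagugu
miR-302a-5p: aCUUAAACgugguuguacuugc
miR-302b-5p: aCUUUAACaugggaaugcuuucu
miR-302d-5p: aCUUUAACauggaggcacuugcu

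The full seed AAGUGCU was shared by 5 members across both clusters, miR-291a-3p, miR-294-3p, miR-295-3p, miR-302b-3p and miR-302d-3p. The miR-302b-3p and miR-302d-3p sequences had 17 of 23 bases in common in 1 run, and each had a run of 16 bases in common with miR-302c-3p. In RefSeq (GRCm38.p6) the 7 hairpins of the miR-290 cluster lay at chr7:3218626-3220841 on the plus strand, a stretch of 2216 bases in the order miR-290a, miR-291a, miR-292, miR-291b, miR-293, miR-294 and miR-295. The stretch overlapped the spans of the protein-coding gene Nlrp12, on the minus strand, and of the long non-coding RNA gene D7Ertd143e, on the plus strand, as well as the microRNA genes Mir290b and Mir292b. The miR-302 hairpins lay with that of miR-367 at chr3:127545228-127545807 on the plus strand, 5 hairpins in 580 bases, inside the span of Larp7, a gene for an RNA-binding protein on the minus strand, and of the long non-coding RNA gene Gm51018 on the plus strand. Whether a hairpin lies in an exon or an intron of these genes is not given in the table used.

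The hairpin of miR-290a, chr7:3218626-3218708 on the plus strand of GRCm38.p6, is shown because its 5p arm gave the brightest member signal while its 3p arm stayed below the brightest negative control. Both mature arms are in capitals, the 5p arm first.
Mir290a hairpin: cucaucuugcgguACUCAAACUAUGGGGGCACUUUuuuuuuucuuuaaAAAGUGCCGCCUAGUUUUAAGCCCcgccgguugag

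Each array carried 1664 blank spots, which hold no probe, and 24 negative control spots of 3 kinds, 8 of each. Blank spots averaged 27.3, 29.5 and 22.7 intensity units, and the blank limit, their mean plus 2 SD, was 29.1, 31.7 and 24.2. The brightest negative control spot was 42.8, 53.0 and 38.3, each time one of the third kind, whose 8 spots ranged from 40.3 to 42.8, 45.5 to 53.0 and 32.3 to 38.3. Of the 24 negative control spots, 23, 23 and 24 exceeded the blank limit, so a probe above that limit alone was not set apart from the negative controls. Spike control spots were dimmer on the treated array, at 8030 ± 464, 7951 ± 801 and 5007 ± 339 for the first kind (SD over 8 spots of 1 array). All 9 probes for intestinal epithelial microRNAs, among them miR-192-5p, miR-200b-3p and miR-375-3p, exceeded the brightest negative control on every array. In organoid RNA of a mixed culture, fewer cells of a type and less RNA per cell cannot be told apart.

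Of all probes, 32.7%, 32.4% and 32.3% exceeded the brightest negative control spot. The members did so in 6, 5 and 6 of 20 cases, a share close to that of all probes. By arm, 33.6%, 33.0% and 33.6% of the 476 probes named as 5p and 30.2%, 29.8% and 30.0% of the 483 probes named as 3p passed over the whole array, so the one-sidedness of the miR-290 cluster was not seen over all probes. The lower blank limit was passed by 75.5%, 75.8% and 72.3% of all probes and by 13, 12 and 13 members, the same number of members to which the authors' value table gave a value on each array. In all 10 members passed the blank limit on all 3 arrays, and miR-291b-3p, miR-302a-5p, miR-302a-3p and miR-302b-5p passed it on none.

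**Figure D1:**
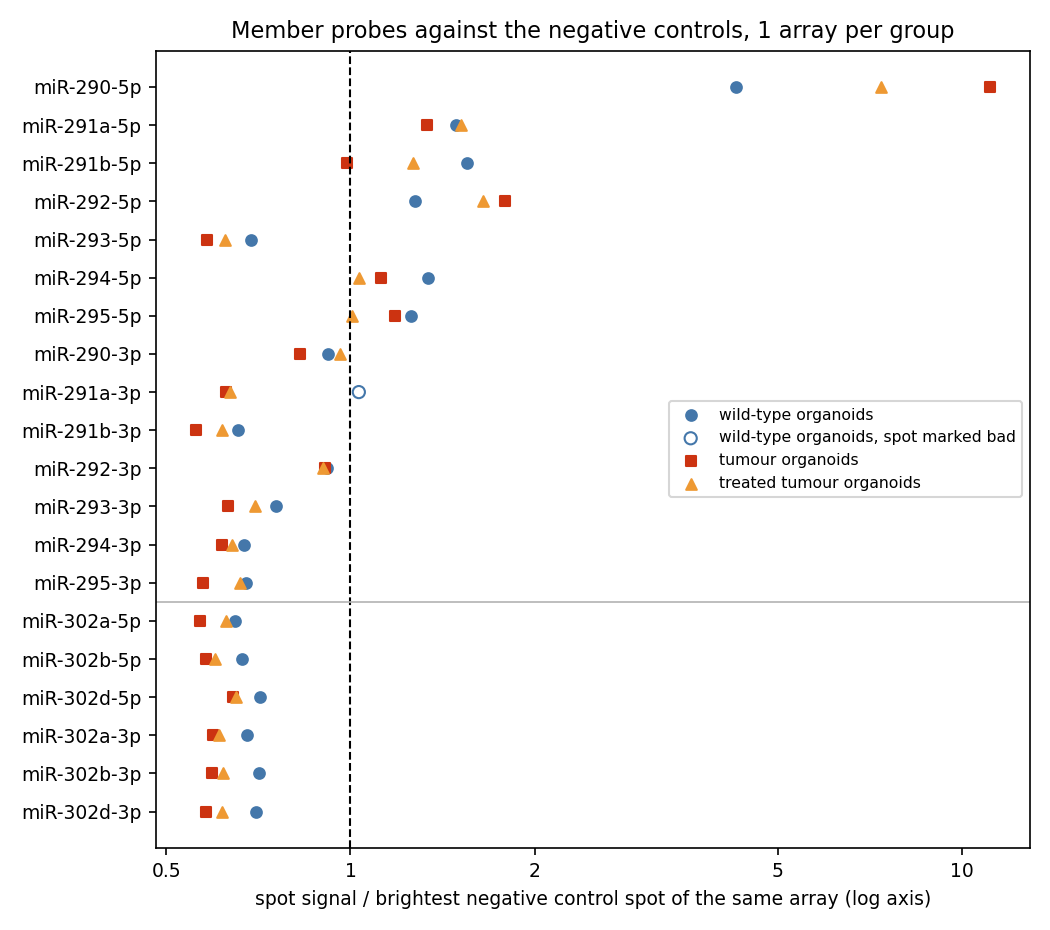
Spot signal of the 20 member probes divided by the brightest negative control spot of the same array, on a log axis, with 1 point per array and a dashed line at 1. The 5p arms of the miR-290 cluster lie above the line except miR-293-5p and, at 0.986 on the tumour array, miR-291b-5p, while miR-290-5p reaches 11.1 on the tumour array, and every miR-302 point lies between 0.567 and 0.710.

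The 5p arm of miR-290 was the member furthest above the controls. Its spot read 183 in wild-type, 590 in tumour and 283 in treated organoids, which was 4.27, 11.1 and 7.38 times the brightest negative control. Above the blank mean this was 156, 560 and 260 units. In these unscaled units, with no background subtracted, the wild-type array was the lowest and the tumour array the highest. The scanner's background value for this spot was 99.9, 462 and 55.1. The highest background of any negative control spot was 36.7, 42.4 and 34.8. When each spot's background was used in the correction, the log2 difference from wild type was 0.28 for tumour and 0.38 for treated tumour. The treated array was then the highest, so the order depended on the background used.

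Another 4 members, miR-291a-5p, miR-292-5p, miR-294-5p and miR-295-5p, were also above the brightest negative control on all 3 arrays but by less. The probe for miR-292-5p, whose seed is that of miR-290-5p, read 27.2, 65.6 and 40.4 units above the blank mean, from 1.27 to 1.79 times the brightest negative control. In these unscaled units its order over the arrays was that of miR-290-5p, with the wild-type array lowest and the tumour array highest. The median of all probes was also highest on the tumour array, at 5.65, 7.96 and 4.95 units above blank. After the quantile normalization described below, the log2 levels of miR-292-5p were 6.62 in tumour and 6.60 in treated organoids. The probe for miR-291a-5p read 36.4, 41.3 and 35.5 units above blank, and its 3 arrays lay close together. The probe for miR-294-5p read 29.9, 30.0 and 16.9, and that for miR-295-5p read 26.5, 33.3 and 15.9. For both the treated array was the dimmest, as it was for the spike controls, and on it both lay only just above the limit, at 1.03 and 1.01 times the brightest negative control. The scanner's background value for the miR-294-5p spot exceeded the spot itself on the wild-type and tumour arrays, at 111 and 1124. Its readings there are uncertain for that reason.

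The 5p arm of miR-291b was above the brightest negative control on the wild-type and treated arrays, at 1.55 and 1.27 times, and just below it on the tumour array, at 0.986 times. It read 39.0, 22.8 and 25.8 units above blank, with the wild-type array highest. In these unscaled units its near-identical neighbour miR-291a-5p did not follow that order. After the quantile normalization described below, both were lowest in the tumour. Log2 levels were then 6.51, 6.36 and 6.53 for miR-291a-5p and 6.59, 6.07 and 6.33 for miR-291b-5p. The remaining 5p arm of the cluster, miR-293-5p, read 2.04, 1.46 and 1.26 units above blank, at most 0.686 times the brightest negative control. It shares the seed of miR-290-5p but not the whole sequence.

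**Figure D2:**
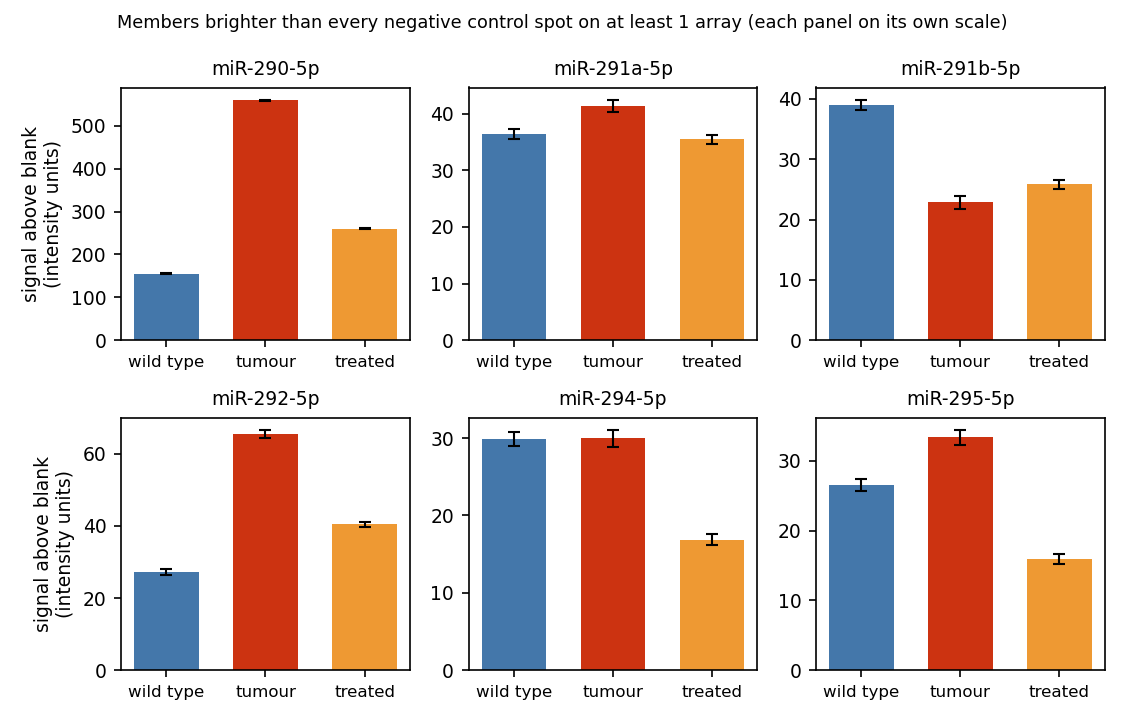
Spot signal above the blank mean, in intensity units, of the 6 members brighter than the brightest negative control on at least 1 array, with 1 bar per array and each panel on its own scale. Error bars are 1 SD of the blank spots of that array after trimming and leave out variation between cultures; miR-290-5p and miR-292-5p are highest on the tumour array and miR-291b-5p on the wild-type array.

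The 3p arms of the miR-290 cluster, most of which carry AAGUGC in the seed, stayed at or below the control range. Unmarked spots lay between 0.558 and 0.961 times the brightest negative control, and 3, 5 and 6 of the 7 probes passed the blank limit. The probe for miR-290-3p read 12.02, 14.4 and 14.2 units above blank, and that for miR-292-3p, whose sequence is not in the table used, read 11.9, 18.7 and 11.9. These were the only 3p arms of either cluster above all spots of the first and second kinds of negative control on every array, as were 45.1% of all probes, and both lay below the brightest spot of the third kind. The spot for miR-291a-3p on the wild-type array read 44.2, or 1.03 times the brightest negative control, but it was marked as bad in the scanner file and was left out. On the tumour and treated arrays that probe read 3.68 and 1.64 units above blank. The other 4 probes, for miR-291b-3p, miR-293-3p, miR-294-3p and miR-295-3p, read between 0.131 and 4.95 units above blank.

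No miR-302 probe stood clearly above the blanks. The highest was miR-302d-5p, at 3.06, 4.55 and 2.19 units above the blank mean, and it alone passed the blank limit on all 3 arrays. On the wild-type array miR-302b-3p, at 3.0 units, and miR-302d-3p, at 2.59, also passed it. The lowest reading was 0.326, for miR-302b-5p on the treated array. The 4 probes for the cluster neighbours miR-302c and miR-367, which the choice by name did not include, read between -0.148 and 2.75 and were likewise never above the brightest negative control. At this signal a level for the miR-302 cluster was not detectable apart from the negative controls, which does not show that the microRNAs were absent.

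Tumour organoids were then compared with wild-type organoids, the comparison of ApcMin tumour with normal epithelium. After background correction with an offset of 50 and quantile normalization, miR-290-5p stood at 7.77, 8.87 and 8.44 on the log2 scale. The log2 difference between tumour and wild type was 1.10, or 2.15-fold, with a spot-noise SD of 0.13 estimated from blank and spike spots. It kept this direction under all 12 alternative settings, with values from 0.28 to 1.59. Some of these only change which probes or spots are counted and could not change a direction. Its difference was the 12th highest of 1040 probes above the blank limit on at least 1 of the 2 arrays. Of those 1040, 2.6% differed at least 2-fold, 13 higher and 14 lower in the tumour, and miR-290-5p was the only member to do so. The ratio of the signals above blank, with neither offset nor scaling between arrays, was 3.60, and with the blank mean subtracted and the arrays scaled the log2 difference was 1.32.

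For miR-292-5p the log2 levels were 6.34, 6.62 and 6.60 in wild-type, tumour and treated organoids. The tumour lay 0.28 higher than wild type, between 0.20 and 0.83 over the alternatives. The level of miR-291b-5p was 6.59, 6.07 and 6.33, and the tumour lay 0.51 lower on the log2 scale. Its values ranged from -1.42 to 0.02, the last with the turned sign when the per-spot background column was used. The other 3 bright members, miR-291a-5p, miR-294-5p and miR-295-5p, had log2 differences of -0.15, -0.20 and -0.09, and each turned sign under at least 1 alternative. After quantile normalization 2 of the bright 5p arms of this cluster were thus higher and 4 lower in the tumour. Scaled to the spike controls, only miR-291b-5p was lower, at -0.27. The others then ranged from 0.02 for miR-294-5p to 1.59 for miR-290-5p, with a median of all probes of 0.09. The number in each direction therefore depended on the scaling. The probe for miR-293-5p, of the same seed as miR-290-5p, had no measurable difference.

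Over the whole miR-290 cluster, 11 of 14 probes could be counted, with 4 higher and 7 lower in the tumour and a median log2 difference of -0.05. For miR-302, 3 of 6 could be counted, with 1 higher and 2 lower and a median of -0.04. All 1040 probes had a median of 0.003, with 540 higher and 499 lower. For the 4 members above the blank limit on only 1 of the 2 arrays, miR-293-5p, miR-294-3p, miR-302b-3p and miR-302d-3p, the lower bounds on the difference were at most 1.03-fold, too small to give a size.

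Treated and untreated tumour organoids were compared to ask what 5-Aza-CdR changed. This comparison shares the untreated tumour array with the one above. The level of miR-290-5p was lower in the treated organoids by a log2 difference of -0.43, the 999th of 1015 probes from the highest, and it ranged from -0.90 to 0.10 over the alternatives, with the opposite sign when the per-spot background column was used. The ratio of the signals above blank was 0.464, but that ratio is not scaled, the spike controls of the treated array were dimmer, and scaled to them the log2 difference was -0.31. Only 0.0985% of the 1015 probes, which is 1 probe, differed 2-fold, and it was no member.

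The other bright members differed by less than 2-fold between treated and untreated organoids under every setting, but their sizes depended on the setting. Log2 differences were 0.25 for miR-291b-5p, 0.18 for miR-291a-5p, -0.02 for miR-292-5p, -0.06 for miR-294-5p and -0.14 for miR-295-5p, and each had the opposite sign under 1 or 2 alternatives. Of the 14 probes of the miR-290 cluster, 12 could be counted, 6 higher and 6 lower, with a median of -0.003 against -0.007 for all probes. The only miR-302 probe counted, miR-302d-5p, had a log2 difference of -0.015. With scaling to the spike controls the median of all probes stood at 0.56 in this comparison and at 0.67 in treated against wild type. Relative to that median miR-290-5p was lower by a log2 difference of -0.87 in treated against untreated organoids. No miR-302 probe and no AAGUGC arm of the miR-290 cluster reached the brightest negative control after the treatment.

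**Figure D3:**
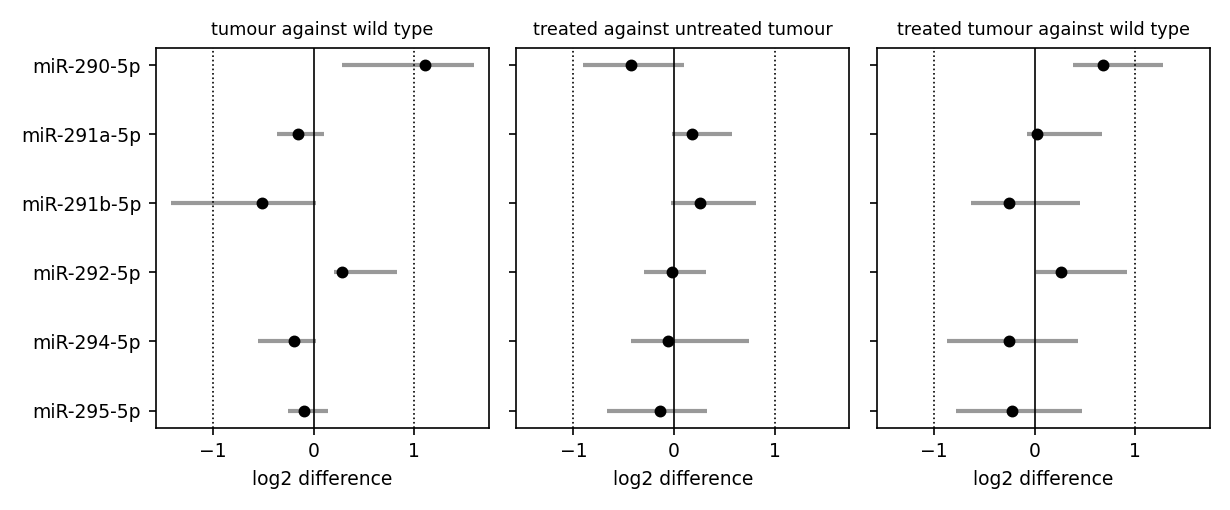
Log2 differences of the 6 bright members in the 3 comparisons, each naming first the group that is positive when higher. Dots are values after quantile normalization, grey lines span all alternative settings and dotted lines mark 2-fold; miR-290-5p lies right of 0 throughout its range in both comparisons with wild type, while its range in treated against untreated tumour crosses 0 through the per-spot background column.

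Against wild type, the treated tumour organoids had a higher miR-290-5p signal, with a log2 difference of 0.68 or 1.60-fold, from 0.38 to 1.28 over the alternatives, the 25th highest of 1027 probes. The ratio of the signals above blank, also not scaled, was 1.67. No member reached 2-fold, which 2.63% of the 1027 probes did. For miR-292-5p the difference was 0.26, from 0.02 to 0.91, with no turned sign. For miR-291a-5p, miR-291b-5p, miR-294-5p and miR-295-5p it was 0.03, -0.26, -0.26 and -0.23, and each had the opposite sign under 1 or 2 alternatives. The median over the 12 counted probes of the miR-290 cluster was 0.02, with 7 higher and 5 lower, and that over all probes was -0.005.

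What the bright members share beyond their arm was examined in the sequences. A run of at least 5 guanines occurred in 17 of the 1030 probes with a RefSeq sequence, or 1.65%, and 2 of these were members, miR-290-5p and miR-292-5p. Of the 17, 82.4%, 88.2% and 82.4% exceeded the brightest negative control. A run of at least 4 occurred in 86 probes, or 8.35%, with miR-295-5p as a further member, and 74.4%, 75.6% and 75.6% of them passed. So 3 of the 6 bright members lay among sequences that often read above the controls on these arrays, and none of the other 15 members with a sequence had such a run. Those shares include the bright members themselves, in whose sequences the run was looked for. The remaining bright members, miR-291a-5p, miR-291b-5p and miR-294-5p, had no run of guanines longer than 2. They share the letters UGGAGGCCCU, but that run was looked for in these 3 alone and its share over all probes was not counted. The sequence of miR-302d-5p, whose probe stayed below the brightest negative control, has a run of 8 bases in common with miR-294-5p.

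Total guanine count followed the signal only at its upper end. Among probes with 10 or more guanines 81%, 78% and 77% exceeded the brightest negative control on the 3 arrays. Among the 143 with 8 or 9 the shares were 43.4%, 42.7% and 40.6%. Among the 340 probes with 4 or 5, the class of 14 members, the shares were 27.4%, 26.2% and 26.2%, and 4 of those 14 members were bright. These are shares across different probes that share an array, and the part of guanine content in the member signals was not tested.

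**Figure D4:**
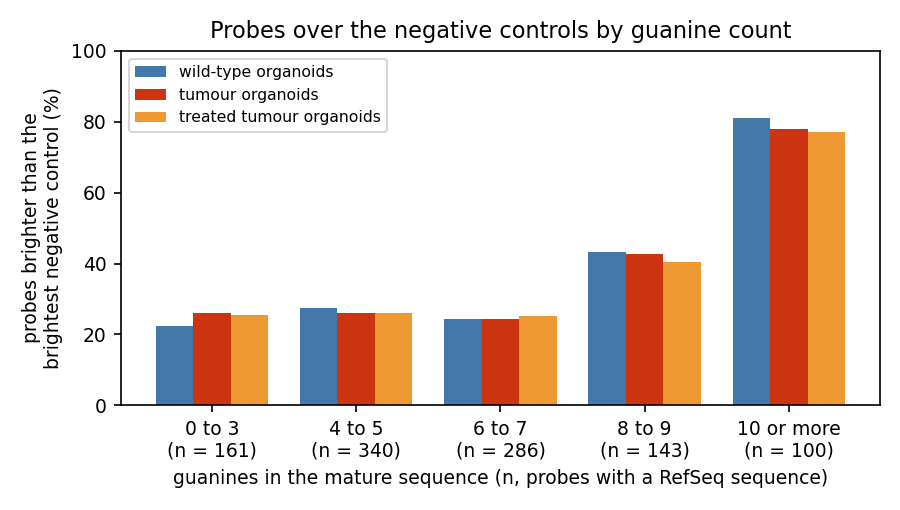
Share of probes brighter than the brightest negative control spot, in percent, by the number of guanines in the RefSeq mature sequence, with 1 bar per array and the number of probes under each class. The share stays between 22.4% and 27.4% up to 7 guanines, is 40.6% to 43.4% at 8 or 9 and reaches 77% to 81% at 10 or more.

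The higher tumour value of miR-290-5p was set beside other guanine-run probes in the same comparison. The other 15 probes with a run of at least 5 guanines had a median log2 difference of 0.06 between tumour and wild type, from -1.03 to 1.24, with 9 higher and 6 lower, of which 2 and 1 reached 2-fold. Both ends of that range belong to probes with the letters UGGGGGCA in common with miR-290-5p. The probe for miR-5129-5p read 130, 555 and 205 units above blank, with log2 differences of 1.24 between tumour and wild type and -0.67 between treated and untreated organoids. The probe for miR-365-1-5p read 373, 238 and 179, with log2 differences of -1.03 and 0.12. Thus 1 of them followed the order of miR-290-5p over the arrays and the other did not. A further probe with a run of 8 letters in common with miR-290-5p, GGGCACUU, was miR-17-3p. It read 44.1, 58.8 and 43.1, with log2 differences of -0.15 and 0.08, and did not follow that order either. Whether the miR-290-5p probe reads another RNA with such shared letters was not tested.

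By the smallest distance between centred log2 levels over the 3 arrays, among 370 candidates brighter than every negative control on all of them, the probes outside the clusters with the pattern most like that of miR-290-5p were miR-1906, miR-1934-3p and miR-6244. Their distances were 0.0689, 0.0926 and 0.126. Their log2 differences between tumour and wild type were 1.19, 1.12 and 1.14, and between treated tumour and wild type 0.69, 0.80 and 0.55. With 3 arrays this likeness is a description only.

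Relatives of the clusters in sequence or role, outside these loci, were read on the same arrays. The 6 microRNAs with the seed AAAGUGC, miR-17-5p, miR-20a-5p, miR-20b-5p, miR-93-5p, miR-106a-5p and miR-106b-5p, which come from the miR-17-92 family of clusters and act in proliferating cells of many tissues, all exceeded the brightest negative control on every array. The probe for miR-17-5p read 970, 855 and 575 units above blank. All 6 were lower in the tumour than in wild type, with a median log2 difference of -0.54 and none at 2-fold, although 1 or 2 of the 6 were higher under each other scaling, with the authors' values and with the per-spot background column. In treated against untreated organoids 4 were higher and 2 lower, with a median of 0.08, and none was higher when scaled to the median of all probes.

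The let-7 family and miR-98, whose mature forms accumulate as embryonic stem cells differentiate, exceeded the brightest negative control on every array for 10 of 11 probes. In tumour against wild type 5 were higher and 6 lower, with a median of -0.01, and 10 of 11 were higher when scaled to the spike controls. In treated against untreated organoids all 11 were higher, with a median of 0.21 and none at 2-fold, but 10 of 11 were lower when scaled to the median of all probes. Of 4 microRNAs reported to target pluripotency factors, miR-134-5p, miR-145a-5p, miR-296-5p and miR-470-5p, only miR-296-5p exceeded the brightest negative control, at 872, 1864 and 964 units above blank. These readings are not scaled. After quantile normalization miR-296-5p had log2 differences of 0.57 between tumour and wild type and -0.32 between treated and untreated organoids.

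Most markers of other cell types stayed below the brightest negative control. The summed signal above blank of 5 smooth muscle and fibroblast probes was 77.6, 72.1 and 46.8, with 2, 2 and 1 of them above that control. Of these, miR-214-3p passed on all 3 arrays, at 42.6, 35.5 and 26.6 units above blank, and miR-199a-5p on the wild-type and tumour arrays. For 6 blood cell probes the sum was 32.4, 66.5 and 28.6, with miR-223-3p alone above the brightest negative control, at 20.7, 41.9 and 18.2 units. The readings of miR-214-3p and miR-223-3p lay in the range of the bright members other than miR-290-5p. These sums are not scaled, and the median of all probes was also highest on the tumour array, at 5.65, 7.96 and 4.95 units above blank. After quantile normalization miR-223-3p had a log2 difference of 0.15 between tumour and wild type. None of 2 endothelial and 2 neuronal probes exceeded it on any array. For the 9 epithelial probes the sum was 11155, 6818 and 4449, and 7 of 9 were lower in the tumour after quantile normalization but 4 of 9 when scaled to the spike controls. Of these, miR-192-5p, miR-194-5p and miR-215-5p, which are made in the absorptive epithelium, had log2 differences of -2.35, -2.57 and -4.20 in tumour against wild type, the only ones of the 9 to reach 2-fold. The part of these cell types in the miR-290-5p values was not tested.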

How the data were processed

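RNA of 3 organoid cultures was labelled with Hy5 by the miRCURY LNA kit, per the labels' protocols. The deposited scanner intensity is a spot's median brightness at 635 nm with no background subtracted, per the file headers. The authors' intensity table was found from the values to be a straight line of that spot intensity on each array (largest residual 1.3e-05), with zero at the trimmed mean of the blank spots and a median of 25 over listed values. Neither the platform of the arrays, nor the scanner's software, nor the release of the microRNA names is stated in the labels or headers.

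Sample titles gave the groups. Probes whose spot carried a bad mark at any of 3 gains were dropped (2 on the wild-type array, 0 on the others). Background was corrected by normexp in limma 3.58.1 (R 4.3.3) fitted to the blanks (offset 50), followed by quantile normalization of the 1265 probes and log2. The blank limit is the blank mean plus 2 SD after trimming 5% at each end. The spot-noise SD combines the trimmed blank SD with the spread of the spike spots. Differences were counted where at least 1 of the 2 arrays passed the blank limit. Bounds set the brighter array against the higher of the limit and the dim probe's own value. The precision is limited by the number of arrays. The steps were tested on simulated data. Python 3.11.15, numpy 2.4.6, pandas 2.3.3 and matplotlib 3.10.9 did the rest.

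The members and all lists were chosen with earlier results of these data known. The rule for named probes names each member and gives full values for those over the brightest negative control on any array. It also takes the 3 nearest patterns to the most variable bright member, by Euclidean distance, and preset relatives and cell type markers. Probes that share letters with miR-290-5p were chosen after their values were seen. Sequences of 1030 among 1252 probes with 1 microRNA name were found in RefSeq (GRCm38.p6). Other offsets, background corrections, scalings, detection limits and fold thresholds were tried, and the authors' values, as the closing section reports.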

Additional observations from a re-analysis of the deposited data

Results flagged for a closer look

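The scanner files hold a background value for each spot, which was not used for the main values. It followed the spot signal over all probes, with a correlation on the log scale of 0.993, 0.990 and 0.978 (wild type, tumour, treated) and a median ratio to the spot of 0.845, 0.780 and 0.697. On 4 occasions a member's background exceeded its own spot by over 1.5 times and was above the highest background of any negative control spot, which was 36.7, 42.4 and 34.8 on the 3 arrays. It read 88.3 for miR-291a-3p on the wild-type array, whose spot was marked as bad. It read 111 for miR-294-5p on the wild-type array and 1124 for the same probe on the tumour array. It read 61.6 for miR-290-3p on the treated array. Over all 1265 probes only 2, 3 and 6 spots had such a ratio, and on the wild-type array both were members. What lay around these spots was not tested.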

How the results depend on the processing

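No paired analysis was possible because each group has 1 array and replicate numbers were given in accession order; leaving out a replicate was not possible for the same reason. Of the summary values under other settings, 76 were labelled the same as the main value and 38 as moved. For single probes these were 119 and 94. With 1 array per group the counts of members have no spread to judge a move by. The median log2 difference of each cluster took the opposite sign under at least 1 alternative in every comparison. For the miR-290 cluster in treated against untreated organoids it did so under 4 of 12, with values from -0.30 to 0.59. The 2-fold call of miR-290-5p in tumour against wild type was lost with the per-spot background column. With the blank mean plus 2 SD in place of the brightest negative control, 13, 12 and 13 members passed (wild type, tumour, treated), and with the median negative control 9, 8 and 9 passed. In tumour against wild type, 4 members differed 2-fold after plain subtraction of the blank mean, 2 by the authors' values and 0 with the per-spot background column. In treated against untreated organoids, 1 did after subtraction. In treated against wild type, 3 did after subtraction, 1 with spike scaling and 1 at a threshold of 1.5-fold. The median log2 difference of the miR-290 cluster in tumour against wild type was -0.26 by subtraction, -0.12 by scaling to the median of probes detected on all arrays, 0.074 by spikes, -0.18 by the authors' values and -0.12 above the brightest negative control. In treated against untreated it was 0.050 by subtraction, 0.10 by that median, 0.59 by spikes and -0.30 by the authors' values. In treated against wild type it was 0.073 by subtraction, 0.68 by spikes, -0.076 by the authors' values and -0.10 above the negative control. For miR-302 in tumour against wild type it was -0.12 with an offset of 16, -1.06 by subtraction, -0.20 by the same median, 0.13 by the authors' values and 0.0039 when detected on both arrays. In treated against untreated it was -0.26 by subtraction, -0.074 with the per-spot column, 0.11 by the median, 0.60 by spikes and -0.66 by the authors' values. In treated against wild type it was -0.10 with an offset of 16, -1.06 by subtraction, 0.64 by spikes and -0.52 by the authors' values. No miR-302 value exists above the brightest negative control. The cause of these moves was not tested. The median of all probes itself was 0.56 and 0.67 with spikes in the treated comparisons, and 0.10, -0.26 and -0.14 with the authors' values in the order above. Keeping marked spots and leaving out spots with a background over 1.5 times the signal were chosen after seeing the data.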
